A study of Arabidopsis thaliana with 4 samples.

Results

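The genes described here build the machinery that moves membrane and cargo between the endoplasmic reticulum, the Golgi, endosomes, the vacuole and the plasma membrane of Arabidopsis thaliana. They are the 20 genes whose annotated symbol, ignoring a leading AT, begins with VPS, SYP, VAMP, VTI, EXO70, SNX, SEC and a digit, or RAB with a letter from A to H and a digit. Each has 1 probe set that names it alone, out of 13350 genes named in that way and 22746 probe sets tested. The symbols were taken as the platform annotation gives them, and 10 of the genes are VPS genes, 9 are SEC genes and 1 is a SYP gene.

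Whole seedlings 6 days old were kept for 24 h on 120 mM NaCl and profiled on Affymetrix ATH1 arrays, with 2 arrays from wild type and 2 from the rsa3-1 mutant. Both genotypes are in the Columbia gl1 background and carry a luciferase transgene under the RD29A promoter, which stress switches on. Every array had salt, so the comparison is of rsa3-1 with wild type under salt, and the mutant is represented by a single allele. The design text calls the 2 arrays of a genotype biological replicates. The labels do not say how many seedlings went into each. The p-values rest only on the spread between these arrays, pooled in part across probe sets.

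RSA3 is also known as MUR3 and KAM1. It encodes a Golgi galactosyltransferase that decorates xyloglucan, a hemicellulose of the cell wall, and mutants of the gene are known for disorganised endomembranes and actin. Vacuolar sorting depends on ESCRT complexes, which bud vesicles into multivesicular endosomes before these join the vacuole. Secretion depends on the exocyst, which tethers Golgi-derived vesicles to the plasma membrane, and on SNARE proteins, which fuse vesicles with their target membrane. SM proteins bind SNAREs and guide that fusion. The comparison asks whether transcripts for this machinery differed between the genotypes.

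The RefSeq table for assembly TAIR10.1 lists 147 genes whose own symbol meets the rule. In the platform annotation used, 127 of them have no probe set that names them alone. Among VPS genes 10 of 30 had such a probe set, among SEC genes 9 of 15, and among SYP syntaxins 1 of 24. None of the 39 RAB GTPases, 23 EXO70 genes, 11 VAMP genes, 3 SNX genes and 2 VTI genes has such a probe set. These genes were not analysed here. The annotation does not list 8730 of the 22810 probe sets. Whether the array measures the missing genes therefore cannot be told from it. The genes analysed are mainly ESCRT and exocyst genes, with a few SNARE and SM genes.

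Values are log2 RMA values as deposited, and a difference is always rsa3-1 minus wild type on that log2 scale. Array medians ran from 6.46 to 6.51 and the lowest value on an array from 2.57 to 2.61. Wild type replicate 1 stood apart in the 42 spike-in control probe sets, all of which were highest on that array, by a median of 1.03 over the mean of the other arrays. Without it, the median difference of the 20 genes described here was 0.08, against 0.06 with all arrays. Whole-seedling RNA was checked with 8 marker genes: the photosynthetic genes RCA and PSAE-1 had wild type means of 13.48 and 13.33 and the root gene PYK10 one of 13.49. The root hair gene EXPA18 and the guard cell gene FMA had wild type means of 7.17 and 5.28. Of the 8 markers 0 passed the test between genotypes (limma), with differences from -0.37 for EXPA18 to 0.28 for the photorespiratory gene HPR. These 2 had an unadjusted p under 0.05 (limma), a level that 9.68% of all probe sets reached. All 4 photosynthetic markers were on the higher side in rsa3-1, by 0.04 to 0.28. Both root hair markers (-0.37 and -0.28), PYK10 (-0.11) and FMA (-0.09) were on the lower side. The pollen, seed and vascular markers chosen were not analysed here. In RNA from whole seedlings, fewer cells of a type and less transcript per cell cannot be told apart.

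Among the 20 trafficking genes, 0 rose and 0 fell in rsa3-1 at an adjusted p under 0.05 (limma, adjusted over all 22746 probe sets). Over all probe sets, 1.13% were called, 0.659% as higher and 0.466% as lower. Adjusted p-values of the 20 genes ran from 0.24 for the syntaxin ATSYP24 to 0.996 for the exocyst gene SEC15B. At an unadjusted p under 0.05 there were 2 genes, ATSYP24 and VPS22, while 9.68% of all probe sets reached that level. The largest differences were -0.38 for ATSYP24, 0.26 for VPS22 and 0.26 for SEC1B. The median difference over the 20 genes was 0.06, against -0.01 over all probe sets.

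**Figure D1:**
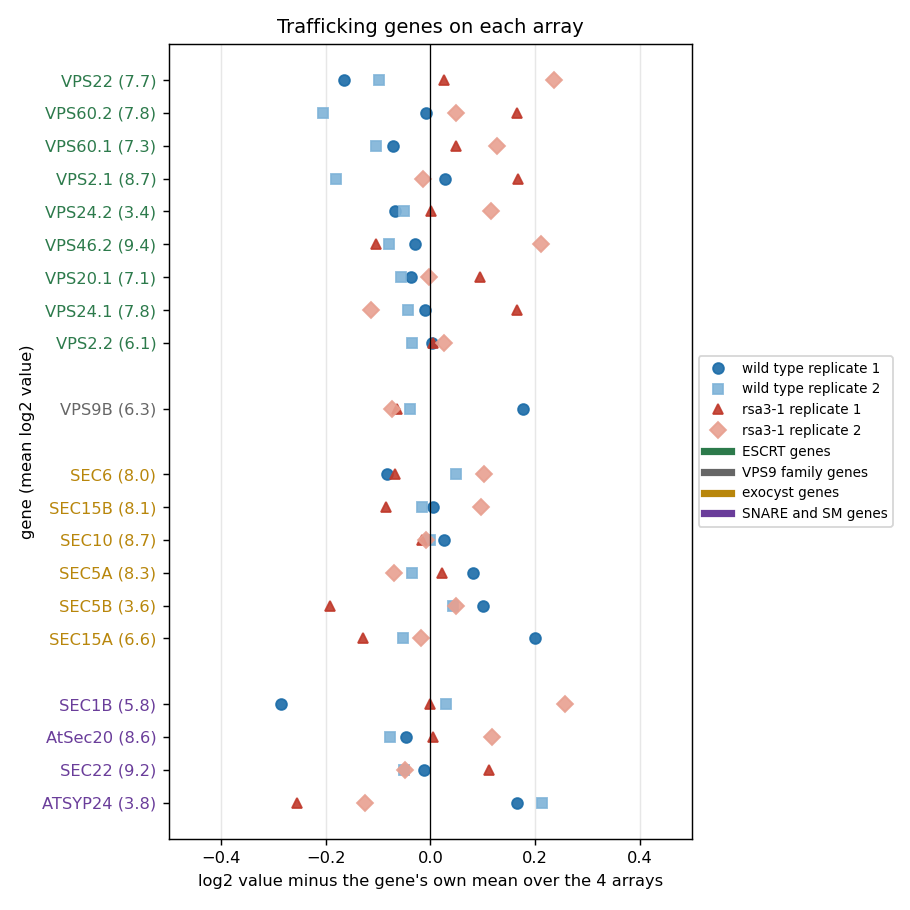
Each row is a gene and each point an array, plotted as the log2 value minus the gene's own mean over the 4 arrays, with that mean in brackets. Points of both genotypes mix in many rows, and all lie within 0.29 of the gene's mean.

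The intervals of these genes were narrow, as were those of most probe sets. A 95% interval from the limma fit, which covers 1 gene at a time, lay inside a 2-fold change in either direction for 20 of 20 genes. It lay inside a 1.5-fold change for 18 of 20, the exceptions being ATSYP24 and SEC1B. Over all probe sets the same was true of 98.7% and 91.5%. The standard errors behind these intervals ran from 0.10 to 0.14. They rest more on the variance shared across probe sets (5.35 prior degrees of freedom) than on each gene's own arrays (2 residual degrees of freedom). The 2 arrays per genotype carry little information on their own. RMA compresses differences among dim probe sets.

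**Figure D2:**
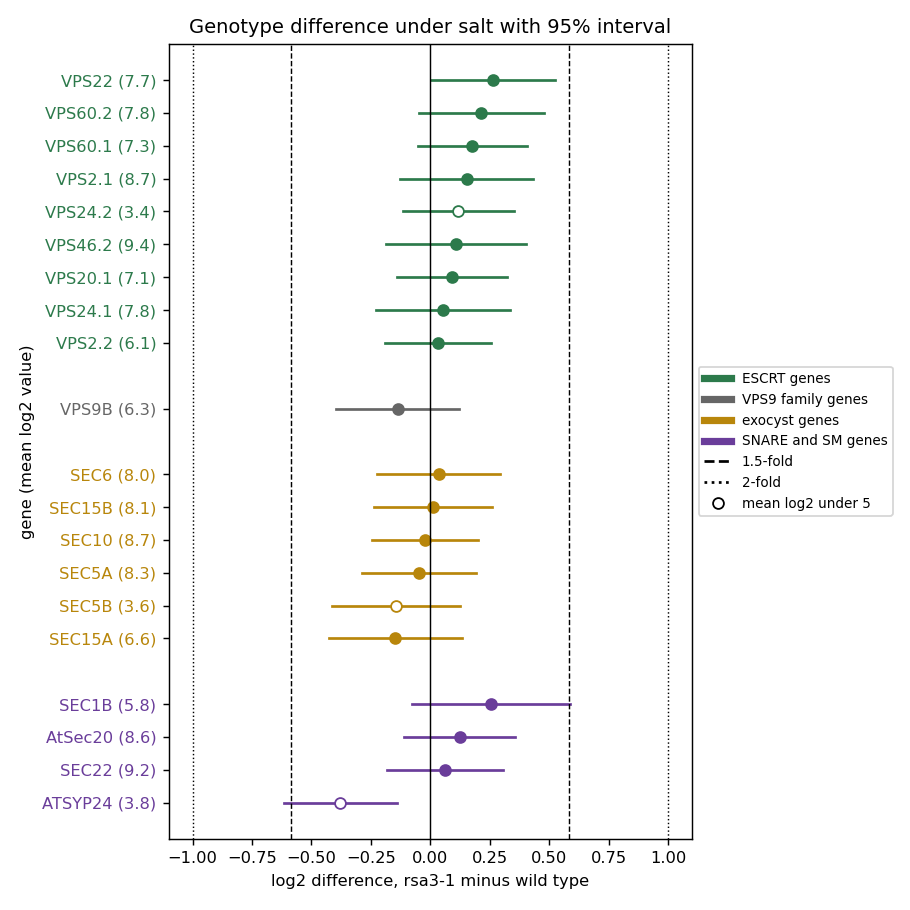
Each point is the log2 difference (rsa3-1 minus wild type) of a gene and each line its 95% interval. Dashed and dotted lines mark 1.5-fold and 2-fold, and open points mark the 3 genes with a mean log2 value under 5. All 9 ESCRT genes have a difference above 0, and no interval reaches 2-fold.

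The ESCRT genes were the largest group, with 9 members, and 0 of 9 passed the test. All 9 had values on the higher side in rsa3-1, with differences from 0.03 to 0.26 and a median of 0.12, while 46.9% of all probe sets had a difference above 0. In 6 of the 9 the arrays of the genotypes did not overlap, with rsa3-1 above wild type, and 17.8% of all probe sets were of that kind. Every interval in this group ended below 0.53, or 1.44-fold. Without rsa3-1 replicate 1 or without rsa3-1 replicate 2, 8 of the 9 differences were above 0, and without either wild type array all 9 were. The 9 genes were read on the same 4 arrays and are not independent of each other. Outside the rule, the ESCRT gene ELC had a difference of -0.04, and 4 ESCRT genes that RefSeq synonyms add were above 0.

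VPS22, a subunit of ESCRT-II, which recruits the later complex, had the largest ESCRT difference. It was at 7.58 and 7.65 on the wild type arrays and at 7.77 and 7.98 on the rsa3-1 arrays. Both rsa3-1 arrays were above both wild type arrays, and the higher rsa3-1 array supplied much of the gap. The difference was 0.26 with a standard error of 0.11 and an interval from 0.0039 to 0.52 (limma adjusted p = 0.51; unadjusted p = 0.047). With an array left out, the difference ran from 0.16 without rsa3-1 replicate 2 to 0.37 without rsa3-1 replicate 1. The unadjusted p was under 0.05 in only 1 of those 4 fits, the one without rsa3-1 replicate 1 (0.030; limma).

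ESCRT-III proteins polymerise on the endosome and pinch off the vesicle. VPS20.1, whose protein nucleates that polymer, was at 7.07 and 7.05 in wild type, against 7.204 and 7.106 in rsa3-1, a difference of 0.09. The groups did not overlap, but rsa3-1 replicate 2 lay close to wild type. VPS2.1 was at 8.75 and 8.54 in wild type, against 8.89 and 8.71 in rsa3-1, a difference of 0.15, and the groups overlapped. Leaving out wild type replicate 1 gave VPS2.1 a difference of 0.26, while leaving out the other wild type array gave 0.05. Its paralogue VPS2.2 was nearly level, at 6.07 and 6.03 in wild type against 6.08 and 6.10 in rsa3-1, the smallest ESCRT difference at 0.03.

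VPS24 proteins act with VPS2 at the end of the polymer. VPS24.1 was at 7.84 and 7.80 in wild type, against 8.01 and 7.73 in rsa3-1. The rsa3-1 arrays lay on either side of wild type, 0.28 apart, so the difference of 0.05 was far inside their spread. Its paralogue VPS24.2 had values of 3.35 and 3.37 in wild type, against 3.42 and 3.53 in rsa3-1, a difference of 0.12. These are low values that may be background, since no detection calls were used here.

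The remaining ESCRT genes encode accessory ESCRT-III proteins that regulate disassembly. VPS46.2, which RefSeq also lists as CHMP1A, was at 9.37 and 9.32 in wild type, against 9.30 and 9.61 in rsa3-1. Its lowest and its highest array were both rsa3-1, 0.31 apart, against a difference of 0.11 between genotypes. Without rsa3-1 replicate 2 its difference was -0.05. The VPS60 paralogues were more even: VPS60.1 was at 7.203 and 7.171 in wild type, against 7.32 and 7.40 in rsa3-1. VPS60.2 was at 7.77 and 7.57 in wild type, against 7.95 and 7.83 in rsa3-1. Neither gene's groups overlapped, and the differences were 0.18 and 0.21 (limma adjusted p = 0.64 and 0.62). Without wild type replicate 1, VPS60.2 was at 0.31 with an unadjusted p of 0.044 (limma adjusted p = 0.64).

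VPS9B belongs to the family of VPS9 proteins, guanine nucleotide exchange factors for endosomal RAB5 GTPases, and it was the VPS gene that stood on the lower side. It was at 6.44 and 6.23 in wild type, against 6.20 and 6.19 in rsa3-1, a difference of -0.14 (limma adjusted p = 0.78). The groups did not overlap, but wild type replicate 2 was within 0.04 of both rsa3-1 arrays. Without wild type replicate 1 the difference was -0.03.

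The exocyst is an octamer of tethering proteins, and its 6 genes measured here were divided in direction, with 2 above 0 and 4 below. Of these 6 genes 0 passed the test, their differences ran from -0.15 to 0.04, and their median was -0.04. Every exocyst interval lay inside 1.5-fold. SEC10 had the most even values of the group, 8.71 and 8.68 in wild type, against 8.66 and 8.67 in rsa3-1, a difference of -0.02 with an interval from -0.25 to 0.20. Its groups did not overlap, although all 4 arrays lay within 0.05 of each other. SEC6 was at 7.92 and 8.05 in wild type, against 7.93 and 8.10 in rsa3-1. The replicates of each genotype differed more than the genotypes did, and the difference was 0.04, or -0.03 without wild type replicate 1.

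SEC5 and SEC15 each have a pair of paralogues among the exocyst genes. SEC5A was at 8.34 and 8.23 in wild type, against 8.28 and 8.19 in rsa3-1, with overlapping groups and a difference of -0.05, or 0.01 without wild type replicate 1. SEC5B was at 3.67 and 3.61 against 3.38 and 3.62, values that may be background, with a difference of -0.14 that came from rsa3-1 replicate 1. SEC15A, at 6.82 and 6.57 in wild type, against 6.49 and 6.61 in rsa3-1, had the largest exocyst difference at -0.15 (limma adjusted p = 0.78), with overlapping groups. Without wild type replicate 1 it was -0.02. SEC15B was at 8.15 and 8.13 in wild type, against 8.06 and 8.24 in rsa3-1, on either side of wild type, and its difference of 0.01 was the smallest of the 20 genes. EXO84B, an exocyst gene outside the rule, had a difference of -0.05.

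The SNARE and SM genes held the lowest and one of the highest differences, and 0 of 4 passed. ATSYP24, a syntaxin of the SYP2 group, was at 3.996 and 4.045 in wild type, against 3.58 and 3.71 in rsa3-1. The groups did not overlap and lay further apart than the arrays within either genotype. The difference was -0.38 with a standard error of 0.10 and an interval from -0.62 to -0.14, which corresponds to 0.65-fold to 0.91-fold (limma adjusted p = 0.24; unadjusted p = 0.0067). With an array left out it ran from -0.44 to -0.31. Its unadjusted p was then under 0.05 except without rsa3-1 replicate 1, and its adjusted p ran from 0.34 to 0.74 (limma). All 4 values are low and may be background, so the size of this difference is uncertain.

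SEC1B encodes an SM protein of the family that controls fusion at the plasma membrane and cell plate. It was at 5.53 and 5.84 in wild type, against 5.81 and 6.07 in rsa3-1. The groups overlapped, and the gap of 0.31 between the wild type arrays was larger than the genotype difference of 0.26 (standard error 0.14; limma adjusted p = 0.64). The interval, from -0.08 to 0.59, was the widest of the 20 and reached 1.5-fold at its upper end. With an array left out the difference ran from 0.10 to 0.41, the higher value without wild type replicate 2. KEU, which belongs to the same SM family and acts at the cell plate, had a difference of -0.04.

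AtSec20 and SEC22 encode SNAREs that work between the endoplasmic reticulum and the Golgi. AtSec20 was at 8.58 and 8.55 in wild type, against 8.64 and 8.75 in rsa3-1, a difference of 0.12 (limma adjusted p = 0.78) with no overlap. SEC22 was at 9.18 and 9.14 in wild type, against 9.30 and 9.14 in rsa3-1, a difference of 0.06 with overlapping groups. Without rsa3-1 replicate 1 the SEC22 difference was -0.02.

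Across the 20 genes the arrays of the genotypes did not overlap in 10, against 38.6% of all probe sets. The difference between genotypes was larger than the gap within either genotype in 6 of the 20 genes, against 26.4% of all probe sets. These 6 were ATSYP24, VPS22, VPS60.1, VPS60.2, VPS24.2 and AtSec20. Standard deviations within a genotype ran from 0.0060 for VPS9B in rsa3-1 to 0.22 for VPS46.2 in rsa3-1 and SEC1B in wild type (n = 2 each). The median was 0.04 in wild type and 0.09 in rsa3-1, against 0.09 and 0.08 over all probe sets. No array was the highest or the lowest throughout: rsa3-1 replicate 2 was the highest array for 9 genes and wild type replicate 2 the lowest for 7.

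**Figure D3:**
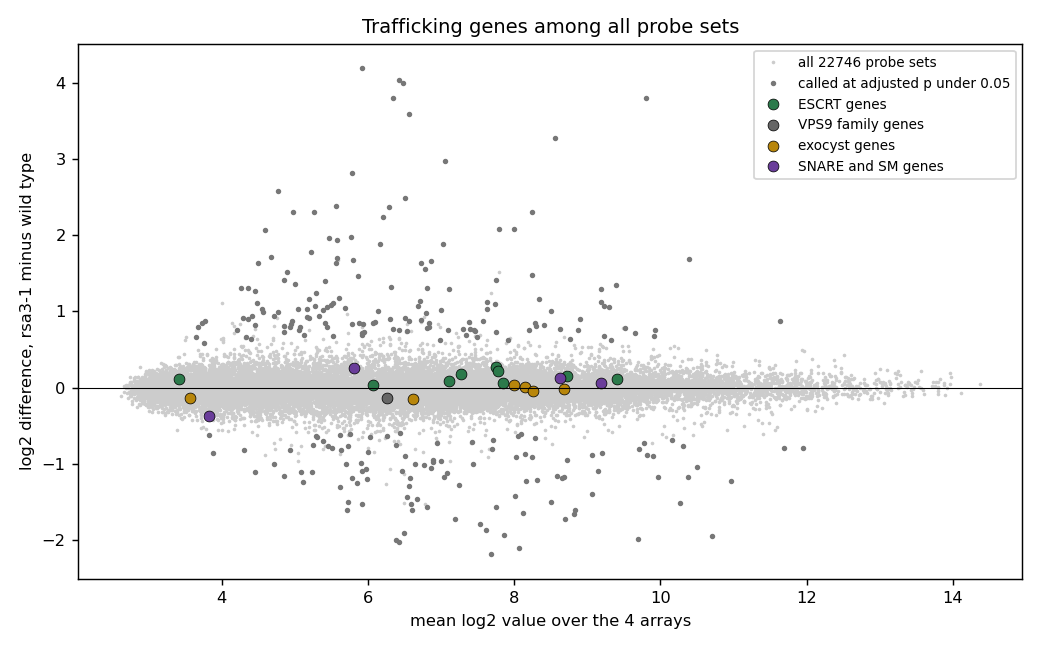
Each point is a probe set, placed by its mean log2 value over the 4 arrays (horizontal) and its log2 difference, rsa3-1 minus wild type (vertical). Darker grey points are the 256 called probe sets, and coloured points are the 20 trafficking genes, all of which lie between -0.38 and 0.26.

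Other genes of the secretory and vacuolar system were taken from 7 lists, in which 53 genes outside the rule were measured. Among these 53, 0 rose and 2 fell (limma), beside 0.659% called as higher and 0.466% as lower over all probe sets. The lists were chosen with earlier results of these data known, so their share called cannot be compared with that over all probe sets. Both that fell were in the same list of 5 genes. Both genes that fell encode vacuolar processing enzymes, the proteases that mature proteins inside the vacuole. BETA-VPE, known for processing seed storage proteins, was at 9.60 and 9.42 in wild type, against 8.65 and 8.59 in rsa3-1. It fell by 0.89 ± 0.11 on the log2 scale (the error is the standard error; limma adjusted p = 0.011), and the groups lay well apart. Its call was lost without wild type replicate 1 (limma adjusted p = 0.071, difference -0.80) and without rsa3-1 replicate 2 (limma adjusted p = 0.057, difference -0.86).

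DELTA-VPE, the enzyme of the seed coat, was at 7.45 and 7.42 in wild type, against 5.74 and 5.07 in rsa3-1. It fell by 2.03 ± 0.20 (standard error) on the same scale (limma adjusted p = 0.0050). With an array left out its difference ran from -2.37 to -1.69. The rsa3-1 arrays lay 0.67 apart, against 0.02 for the wild type arrays. The vegetative enzymes did not pass. GAMMA-VPE was at 10.38 and 10.25 in wild type and 10.21 on both rsa3-1 arrays, a difference of -0.10, and ALPHA-VPE had a difference of 0.01. ELC, an ESCRT-I subunit and the remaining gene of this list, was at 7.82 and 7.80 in wild type, against 7.79 and 7.76 in rsa3-1, a difference of -0.04. Seed markers were not analysed here, and any part of seed-derived RNA in the fall of the 2 enzymes was not tested.

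The other 6 lists held 48 genes and 0 of them passed (limma). Of these 48, 1 had an unadjusted p under 0.05 (limma), a level that 9.68% of all probe sets reached. That gene was XI-I, a myosin that moves organelles along actin, which was at 6.81 and 6.75 in wild type, against 6.48 and 6.56 in rsa3-1, a difference of -0.26 (limma adjusted p = 0.44). Among the 19 actin and myosin genes the differences ran from -0.39 for the myosin XIJ to 0.26, with a median of -0.03. XIJ leaned on wild type replicate 2, at 4.59 against 3.85, 3.80 and 3.86 on the other arrays, and without that array its difference was -0.02.

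Of 3 adaptor and dynamin genes, differences ran from -0.04 to -0.0015. TPLATE, of an adaptor complex of endocytosis, was at 8.01 and 7.87 in wild type, against 7.98 and 7.88 in rsa3-1, with overlapping groups and a difference of -0.01 (0.0047 with the arrays at a common median). The dynamin-like DL1D was at -0.04 with values that may be background. Among 4 ARF-like GTPases, small switches of membrane traffic, ARLA1B was at 0.37 and ARLA1D at 0.06. ARLA1B was at 5.97 and 6.47 in wild type, against 6.61 and 6.56 in rsa3-1, so its difference leaned on wild type replicate 1, without which it was 0.12.

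The list of 15 RAB regulators and tethers includes EXO84B of the exocyst. Differences in this list ran from -0.23 for PRA1.F1 to 0.11 for PRA1.E, both of a family of RAB acceptor proteins of the endomembranes. Without wild type replicate 1 PRA1.F1 was at -0.0091, and without rsa3-1 replicate 2 it was at -0.05 and PRA1.E at 0.02. Of the 4 other SNARE and SM genes, the R-SNARE ATYKT62 was at -0.14 with values that may be background, and the SM protein ATSLY1 was at -0.07. The 3 membrane subunits of the vacuolar proton pump, which acidifies the trans-Golgi network and the vacuole, were almost level. VHA-A2 was at 0.04, VHA-A3 at 0.02 and VHA-A1 at -0.01, and each changed sign with 1 array or another left out.

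**Figure D4:**
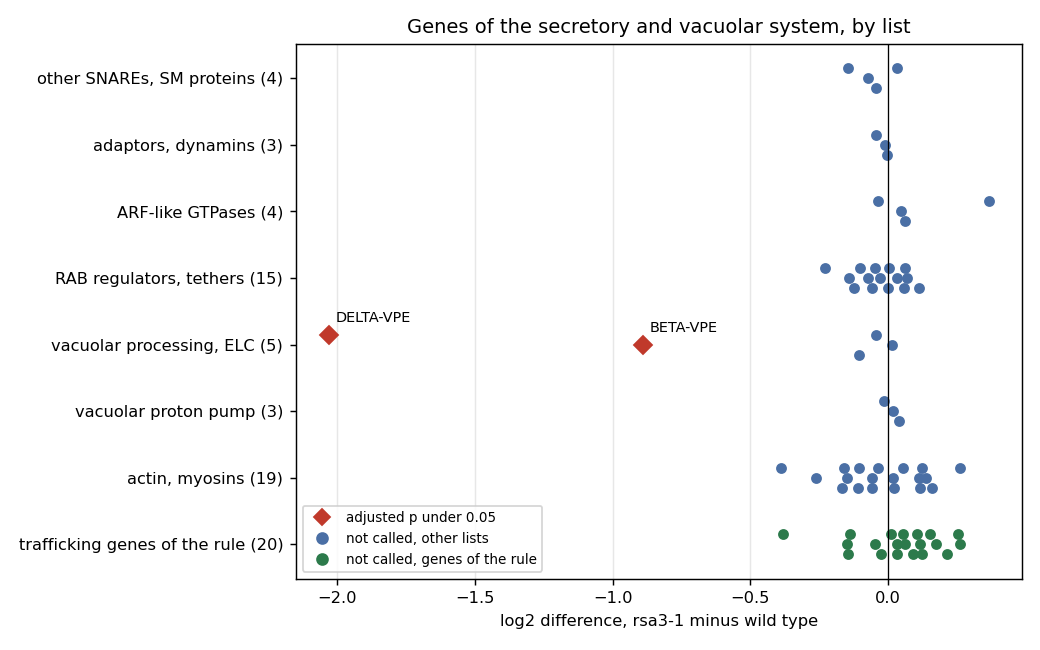
Each point is a gene, placed by its log2 difference (rsa3-1 minus wild type) in the row of its list, with the number of measured genes in brackets. Red diamonds mark the 2 genes called at an adjusted p under 0.05, DELTA-VPE at -2.03 and BETA-VPE at -0.89. The 20 trafficking genes of the bottom row lie between -0.38 and 0.26.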

How the data were processed

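The authors deposited log2 values from RMA, per the submitters' processing notes, which give neither its software nor its version, and no further scaling was applied. Of 22810 probe sets, 64 array controls were left out. The platform annotation names 1 gene for 13513 probe sets and several for 503, and it does not list 8730. A probe set that names several genes, 1 of them meeting the rule, was not used. A two-sided limma fit (version 3.58.1, run under R 4.3.3, with eBayes moderation at 5.35 prior and 2 residual degrees of freedom) was made for each probe set, with Benjamini-Hochberg adjustment over 22746 probe sets. The procedure was tested on simulated data. The number of arrays limits the precision; with 2 against 2 an exact permutation test cannot go below 0.333.

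The genes and lists were chosen with earlier results of these data known. Roles were assigned from general knowledge. Lists were matched by symbol, and 3 symbols shared with unrelated genes were left out: SLY1 for SLEEPY1, ARL for ARGOS-like, and CHC1 for a locus that RefSeq also lists as BAF60, which is no clathrin gene. Named outside the rule are called genes and, per list, the 2 of smallest p, with members of the same complex or family. Alternatives covered scaling, dim-probe filters, variance model, array weights, replicate block, each array left out, and the choice of members. Annotation was joined with pandas 2.3.3 and figures drawn with matplotlib 3.10.9, both under Python 3.11.15. No sequence is shown.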

Additional observations from a re-analysis of the deposited data

How the results depend on the processing

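Under every alternative run, 0 of the 20 genes was called, and their median difference stayed between 0.04 and 0.08. The count at an unadjusted p under 0.05, 2 with all arrays, was 1 with filters at a mean log2 value of 6 (16 genes left) or 5 (17 genes left), 1 to 2 with an array left out, 3 with the replicate block, and 4 of 29 genes when RefSeq symbols and synonyms also counted. The 256 called probe sets became 42 with the replicate block and 102 to 222 with an array left out; the 2 called genes of the other lists became 0 with the block and 1 to 2 with an array left out. With the block, the adjusted p was 0.072 for DELTA-VPE and 0.093 for BETA-VPE; over all probe sets, arrays that share a number deviated from their genotype means with a correlation of 0.013, and the labels give no pairing. Among the 20 genes and 30 others that the text names, sign changes were found for genes that were not called; the remaining genes of the lists were not put through these alternatives one by one. With arrays at a common median, TPLATE was at 0.0047 and RAB6A at 0.014. The other sign changes came with an array left out: VPS46.2 ranged from -0.050 to 0.26, VPS24.1 from -0.086 to 0.19, SEC22 from -0.018 to 0.14, SEC5A from -0.10 to 0.011, SEC6 from -0.051 to 0.12, SEC15B from -0.078 to 0.10, ARLA1D from -0.070 to 0.19, DL1D from -0.11 to 0.029, VHA-A2 from -0.078 to 0.16, VHA-A3 from -0.010 to 0.047, VHA-A1 from -0.091 to 0.062, TPLATE from -0.077 to 0.059, EXO84B from -0.10 to 0.0099, KEU from -0.11 to 0.028, ALPHA-VPE from -0.16 to 0.19, RAB6A from -0.047 to 0.047, AT3G63460 from -0.52 to 0.11 and AT1G18830 from -0.058 to 0.31. The causes were not tested. A fit without an array assumes that the lone array varies like the other genotype. Each gene had 1 probe set, so averaging probe sets changed nothing. Detection calls were not used, so the limit set by background is unknown for the 3 genes with means under 5.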

Other observations

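RefSeq synonyms bring in another 9 genes that the annotated symbols miss, and 0 of these passed (limma; 2 at an unadjusted p under 0.05, a level that 9.68% of all probe sets reached). Of these, 4 encode ESCRT subunits, and in all 4 both rsa3-1 arrays were above both wild type arrays, as in 17.8% of all probe sets. AT5G04920, listed as VPS36 and a partner of VPS22 in ESCRT-II, was at 7.59 and 7.47 in wild type, against 7.88 and 7.83 in rsa3-1, a log2 difference of 0.32 (limma adjusted p = 0.33). SNF7.1 and SNF7.2, the main polymer proteins of ESCRT-III, had differences of 0.25 and 0.16, with values of 7.95 and 7.82 against 8.10 and 8.16 for SNF7.1 and 8.75 and 8.81 against 8.95 and 8.93 for SNF7.2. AT2G36680, listed as VPS37-2 of ESCRT-I, was at 6.23 and 6.33 against 6.81 and 6.40, a difference of 0.33 that leaned on rsa3-1 replicate 1, without which it was 0.12. With these and ELC, 14 ESCRT genes were measured and 13 had values above 0, with a median of 0.16 against -0.01 over all probe sets. These 14 were put together after the values were seen, 0 were called, and 13 intervals lay inside 1.5-fold. They were read on the same 4 arrays and are not independent of each other.

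The other 5 genes named by synonym were divided in direction. ARA6, a plant RAB5 GTPase of endosomes, was at 8.82 and 8.93 in wild type, against 8.76 and 8.77 in rsa3-1, a difference of -0.11 with no overlap. RAB6A, a GTPase of the Golgi, was level at 9.75 in both genotypes. AT3G63460 and AT1G18830, listed as SEC31B and SEC31A of the COPII coat, were at -0.21 and 0.12, with overlapping arrays; the first was at 0.11 without wild type replicate 1 and the second at -0.06 without rsa3-1 replicate 2. KEU is the fifth of these genes.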
